A study of Macaca mulatta with 22 samples.

Results

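The genes described here are 9 components of the machinery that docks, primes and fuses synaptic vesicles: RIMS1, UNC13A, PCLO, BSN, SYT1, CPLX1, CPLX2, CPLX3 and SNAP25. They were chosen by name, with earlier results of these data known. A peak was assigned to a gene when the deposited list called it in that gene's Ensembl macaque entry. Of the 9 genes, 7 had at least 1 m6A peak in at least 1 animal and 2 had none, against 3671 genes with a peak in the whole series. The peaks came from m6A-seq, in which an antibody to N6-methyladenosine (m6A), the commonest internal modification of mRNA, pulls down fragmented RNA and the enriched stretches are reported as peaks. The tissue was the prefrontal cortex, taken at postnatal day 35 from young rhesus macaques (Macaca mulatta). The sevoflurane group had 5 animals, the males D and S1 and the females F, S2 and S3, which had inhaled about 2.5 to 3% of this volatile anaesthetic for 4 h at a time, at about 7, 21 and 35 days of age. The control group had 6 animals of the same age, the males A and B and the females C, C1, C2 and C3, and the labels do not say what they received in place of sevoflurane. Each animal gave 1 peak list, and every list is of the whole tissue piece, not of sorted neurons.

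At a presynaptic terminal, vesicles loaded with transmitter wait at the active zone, a protein-dense patch of membrane opposite the receiving cell. Scaffold proteins hold vesicles and calcium channels together there, priming factors make the vesicles ready, and the SNARE proteins on vesicle and plasma membrane zip together to fuse them when calcium enters. m6A in an mRNA is read by binding proteins that affect its splicing, transport, translation and decay, and in neurons some methylated mRNAs are carried to synapses.

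The 7 genes held 26 peaks, 18 in sevoflurane lists and 8 in control lists. The number of the 9 genes with a peak was 2 in D, 4 in F, 1 in S1, 5 in S2 and 4 in S3 after sevoflurane, against 0 in A, 2 in B, 0 in C, 1 in C1, 2 in C2 and 3 in C3 among controls. The means were 3.2 ± 1.64 (SD, n = 5) in sevoflurane animals and 1.33 ± 1.21 (SD, n = 6) in controls, and the groups overlapped, with S1 below 3 of the controls and C3 above 2 of the sevoflurane animals. The lists themselves differed in length in the same direction. They held 1146 peaks in D, 1178 in F, 852 in S1, 1673 in S2 and 1236 in S3, against 601 in A, 535 in B, 483 in C, 452 in C1, 703 in C2 and 1210 in C3. The log2 difference in list length was 0.93 (two-sided exact permutation test over 462 relabellings, p = 0.0152). The longest control list, that of C3, held 3 of the genes, and S2, with the longest list of all, held 5.

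**Figure D1:**
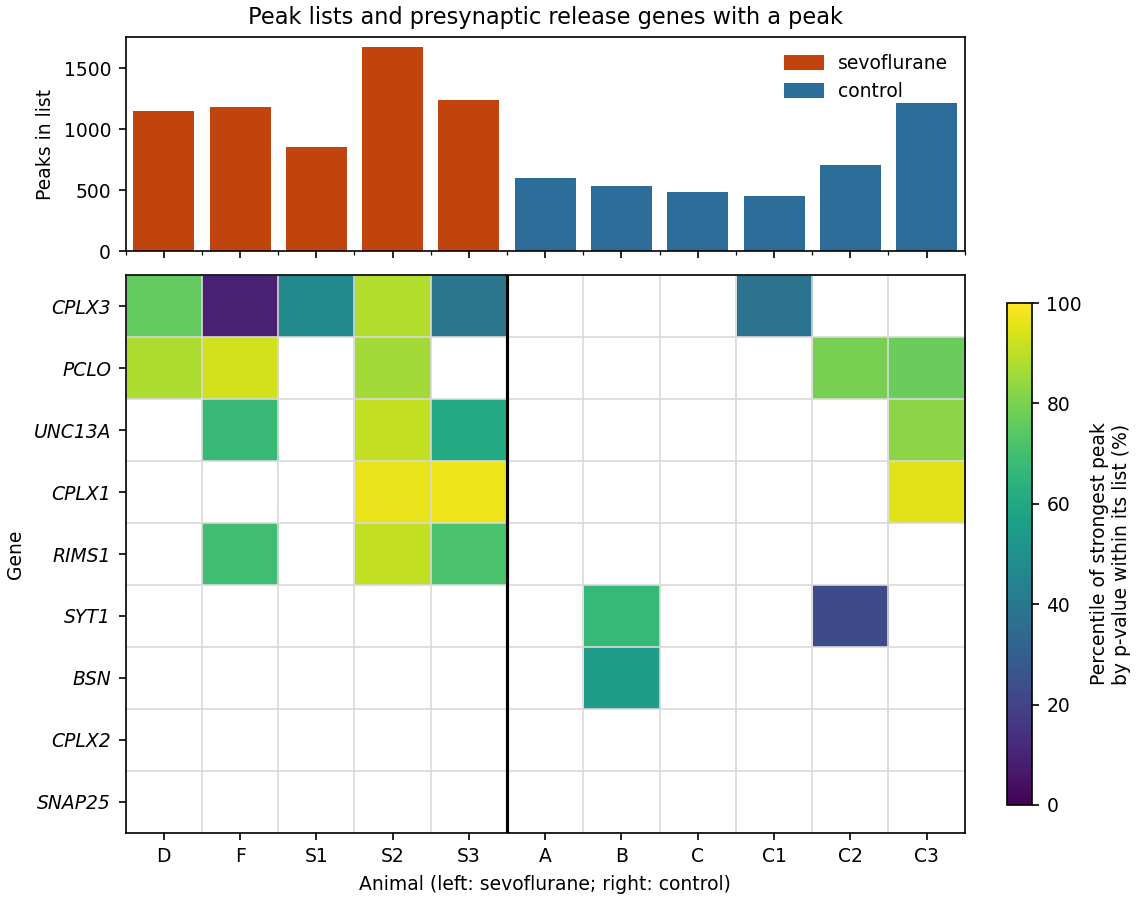
The upper panel gives the number of peaks in each animal's list (bars from 0) and the lower panel gives, for each of the 9 genes and 11 animals, the percentile by p-value of its strongest peak within that list (colour, %; white means no peak), with the 5 sevoflurane animals left of the 6 controls. CPLX3 is filled in 5 of 5 sevoflurane animals and 1 of 6 controls, RIMS1 in 3 and 0, SYT1 in 0 and 2, and CPLX2 and SNAP25 are empty throughout.

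Presence was compared gene by gene over the whole series. Of the 3671 genes, 1486 had a peak in 2 to 9 animals and were tested with Fisher's exact test, with Benjamini-Hochberg adjustment over all of them. Of the 9 genes, 6 entered this test. With 5 and 6 animals, a gene seen in 2 or 3 animals cannot reach an unadjusted p under 0.05 in it. Of the tested genes, 641 were in 2 animals and 305 in 3, with RIMS1, CPLX1 and SYT1 among them. 1 of the 6, CPLX3, was present more often after sevoflurane at an unadjusted p under 0.05, against 27 of all 1486 genes (1.82%), and 0 of the 6 were present more often in controls, against 0 of 1486 (0%). 5 of the 6 were found in a larger share of sevoflurane than control animals, against 1236 of the 1486 (83.2%), so the direction was that of most genes. The median difference in the share of animals was 35 percentage points over the 6 genes and 23.3 over all tested genes. No gene in the series, these 6 included, had an adjusted p under 0.05 by Fisher's test, and the smallest adjusted p was 0.606. For regions, in place of genes, 19 of 1265 (1.5%) passed the unadjusted threshold after sevoflurane and 0 in controls. RNA amounts were not measured in these files, so fewer cells of a type, less RNA per cell, lower methylation and shallower sequencing cannot be told apart where a peak is absent.

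The complexins gave the widest contrast within one family. Complexins are small cytosolic proteins that bind the assembled SNARE complex, hold it before fusion and also promote fast release. CPLX3, a lipid-anchored complexin known in the mouse from ribbon synapses of the retina and from subplate neurons of the developing cortex, had a peak in all 5 sevoflurane animals and in 1 control, C1. The difference was 83.3 percentage points (Fisher's exact test, unadjusted p = 0.0152, adjusted p = 0.606). Both sevoflurane males and all 3 sevoflurane females carried it, against 0 of 2 control males and 1 of 4 control females. With animals stratified by sex the exact p was 0.0238. C3, the control with a list as long as those after sevoflurane, had none. C1, the only control with a CPLX3 peak, had the shortest list of all.

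The CPLX3 peaks lay in a region of rheMac8 at chr7:52049654-52053031 on the plus strand, at the start of the annotated gene (chr7:52049654-52054788, ENSMMUG00000043994). The authors' fold enrichment there was 4.98 in D, 2.68 in F, 4.57 in S1, 13.8 in S2 and 2.80 in S3, against 2.82 in C1. By p-value these peaks stood at percentile 76.0 of the list in D, 9.25 in F, 47.8 in S1, 88.3 in S2 and 39.6 in S3, and at 37.9 in C1, so the strength of the call varied widely among sevoflurane animals and the control value fell inside their range. The peaks of D, S1 and S2 ran over 3 exonic blocks up to 3377 bp from the gene start, that of C1 over 2 blocks, and those of F and S3 lay within the first exonic block, each 90 bp long. A stretch of 31 bp, from 119 to 149 bp past the start, was covered in D, F, S2 and S3 and in C1. The S1 peak began beyond that stretch, at 179 bp, and shared no base with that of F. S2 had a second peak near the 3′ end (chr7:52054371-52054461, fold 4.26), which no other animal had. Tested as a region, the one at the start gave the same Fisher p of 0.0152, with an adjusted p of 0.610.

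CPLX1, a complexin found at many brain synapses, had a peak in 2 sevoflurane animals, S2 and S3, and in 1 control, C3, which were the animals with the 3 longest lists. All 3 peaks overlapped in chr5:755848-762171 on the minus strand, inside the annotated gene (chr5:754180-798768, ENSMMUG00000005016). Fold enrichment was low, 2.67 in S2 and 3.06 in S3 against 2.20 in C3. Yet the p-values were among the smallest for these genes, 1e-50 in S2 and 7.9e-43 in S3 against 2e-29 in C3, at percentiles 96.7 and 97.5 of the sevoflurane lists and 95.5 of the control list. The longest stretch shared by the 3 animals was 84 bp, from 37220 to 37303 bp past the gene start. They also shared 6 bp of a further block, from 42826 to 42831 bp. The difference in presence had an unadjusted p of 0.545 and an adjusted p of 0.901 (Fisher's exact test). A gene in 3 animals cannot pass the unadjusted threshold in this test. CPLX2, its close paralog in the forebrain, had no peak in any of the 11 lists.

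**Figure D2:**
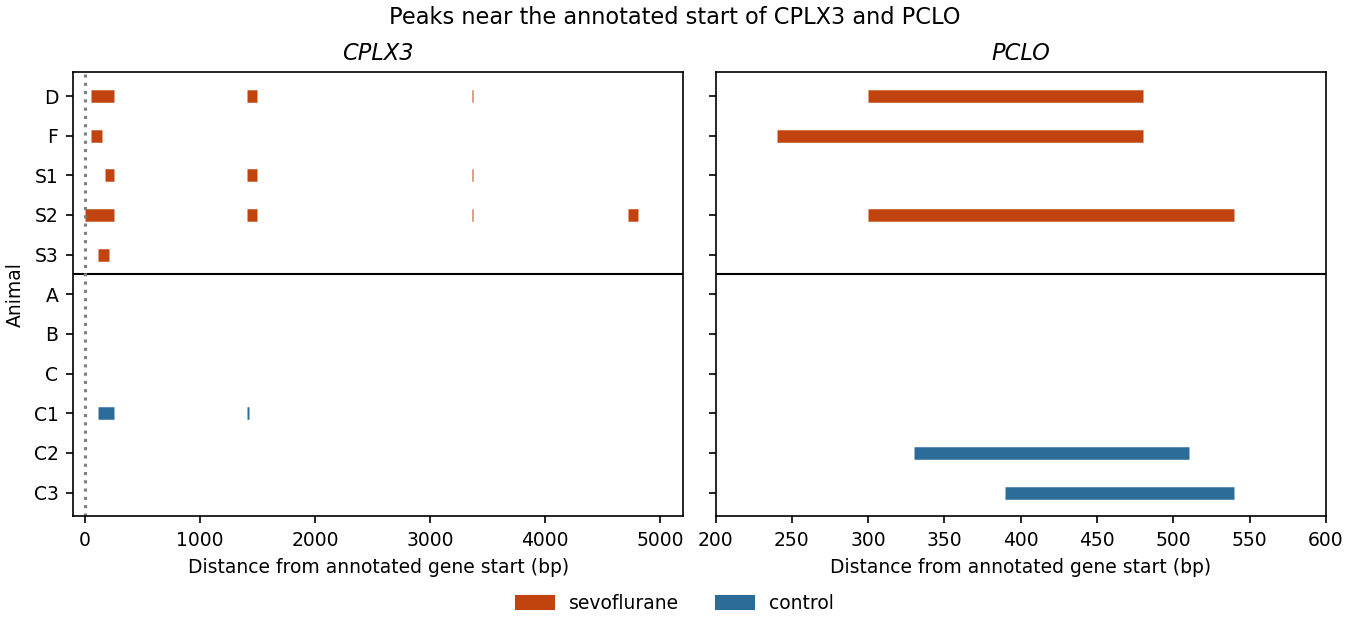
Exonic blocks of each peak called in CPLX3 and of the peaks near the start of PCLO, by distance from the annotated gene start (bp), with a line per animal and the 5 sevoflurane animals above the 6 controls. In CPLX3 the blocks of 5 sevoflurane animals and of C1 gather in the first 253 bp, with later blocks in D, S1, S2 and C1, and in PCLO the blocks of D, F, S2, C2 and C3 all cover 390 to 480 bp.

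The active zone scaffolds PCLO and BSN encode piccolo and bassoon, giant paralogous proteins that organise the vesicle cluster. PCLO had a peak in 3 sevoflurane animals, D, F and S2, and in 2 controls, C2 and C3 (Fisher's exact test, unadjusted p = 0.567, adjusted p = 0.901). All 5 animals had it at the same place, chr3:111024259-111024559 on the plus strand, 240 to 540 bp past the annotated start of a gene that spans 400112 bp (chr3:111024019-111424130, ENSMMUG00000021678). A stretch of 91 bp, from 390 to 480 bp past the start, was covered in all 5. Fold enrichment was 3.04 in D, 4.70 in F and 2.86 in S2, against 2.95 in C2 and 2.37 in C3. The p-values were 6.3e-17 in D, 1.6e-25 in F and 1.6e-16 in S2, against 1.4e-09 in C2 and 6.6e-10 in C3, so each sevoflurane value was smaller than both control values. A p-value also shrinks with depth, which is not known, and within the lists the percentiles by p-value were 87.7, 93.0 and 86.1 in D, F and S2, against 79.7 and 77.2 in C2 and C3. Every animal with a PCLO peak thus covered 1 common stretch, which in CPLX3 held for 5 of 6 animals. F had a further, weaker peak across 3 exons near the far end of PCLO (chr3:111381478-111421232, fold 2.27). BSN had 1 peak, in the control male B (chr2:92677337-92677517, minus strand, 181 bp, fold 3.16, ENSMMUG00000014537), and was in too few animals to test.

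RIMS1 and UNC13A act in docking and priming. RIM1, the product of RIMS1, tethers calcium channels and recruits the priming factor Munc13, which UNC13A encodes and which opens syntaxin for SNARE assembly. RIMS1 had a peak in 3 sevoflurane animals, F, S2 and S3, all females, and in 0 of the 6 controls. The difference was 60 percentage points (Fisher's exact test, unadjusted p = 0.0606, adjusted p = 0.606). The 3 peaks were not at 1 place. In F and S2 they overlapped over 91 bp within chr4:70213821-70214061 on the plus strand, at 55.1% of the length of the annotated gene (chr4:69942258-70435171, ENSMMUG00000010345). In S3 the peak lay at 99.3%, in chr4:70431030-70432537. Fold enrichment was 2.81 in F, 2.75 in S2 and 3.61 in S3, and the p-values were 1.3e-08, 1.3e-22 and 1.5e-07. The region shared by F and S2 had a Fisher's exact p of 0.182. Stratified by sex, the gene gave an exact p of 0.0286. It had a peak in 3 of 3 sevoflurane females and 0 of 4 control females, and in 0 of 2 males in either group. With these strata 37 of the 1486 tested genes passed the unadjusted threshold after sevoflurane, against 27 without them. The exact p of RIMS1 was 0.238 once the differing list lengths were allowed for. It was 0.1 with animals of the same number, such as S1 and C1, kept together in a block. A difference between the sexes was not tested.

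UNC13A had a peak in 3 sevoflurane animals, F, S2 and S3, and in 1 control, C3 (Fisher's exact test, unadjusted p = 0.242, adjusted p = 0.635). F, S2 and C3 shared a region at chr19:17603582-17603911 on the minus strand, 30.8% into the annotated gene (chr19:17550534-17627448, ENSMMUG00000015476), with 121 bp common to all 3. Fold enrichment there was 2.65 in F and 3.72 in S2, against 3.46 in C3, and the control value lay between those after sevoflurane. The peak of S3 was elsewhere, at the gene start (chr19:17626621-17627947, fold 6.49), and 1 of its 3 blocks lay before the annotated start, at -499 to -448 bp.

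Both genes share exons with another annotated gene. An Ensembl gene with no symbol, ENSMMUG00000043808, lies on exons of RIMS1 on the same strand and had peaks in the same 3 sevoflurane animals and no control, so counting both together left RIMS1 at 3 and 0. In S2 and S3 its overlapping peak had nearly the same enrichment as the one called in RIMS1, 2.80 against 2.75 and 3.61 against 3.61. In F it was 29.5 for the unnamed gene and 2.81 for RIMS1, over peaks that share 99 bp, a ratio of 10.5. Over all lists there were 172 pairs of overlapping peaks called in different genes, with a median ratio of 1.04, and 5 pairs (2.91%) exceeded 2. The enrichment of RIMS1 in F is therefore uncertain.

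A second gene with no symbol, ENSMMUG00000046541, contains the whole span of UNC13A (chr19:17545837-17640237, minus strand, 94401 bp) and had 18 peaks in 5 regions, in 4 sevoflurane animals and 4 controls. One of its regions was the exon shared with UNC13A, where the same F, S2 and C3 had a peak. Its commonest region, chr19:17548596-17549076, lay 1458 to 1938 bp past the annotated 3′ end of UNC13A and was present in D, F, S2 and S3 after sevoflurane and in A, B, C2 and C3 among controls (Fisher's exact p = 1). Fold enrichment there was 3.91 in D, 9.64 in F, 4.59 in S2 and 8.15 in S3, against 4.97 in A, 8.25 in B, 3.78 in C2 and 3.95 in C3. These were larger than the folds at the shared exon in every animal that had both, F, S2 and C3. Whether this stretch belongs to the UNC13A transcript cannot be told from the peak lists. If the unnamed gene's peaks are counted with UNC13A, the gene is present in 4 of 5 sevoflurane animals and 4 of 6 controls, a difference of 13.3 percentage points (Fisher's exact p = 1). For PCLO, BSN, SYT1, CPLX1 and CPLX3 no other gene had a peak on the same strand within 10000 bp.

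**Figure D3:**
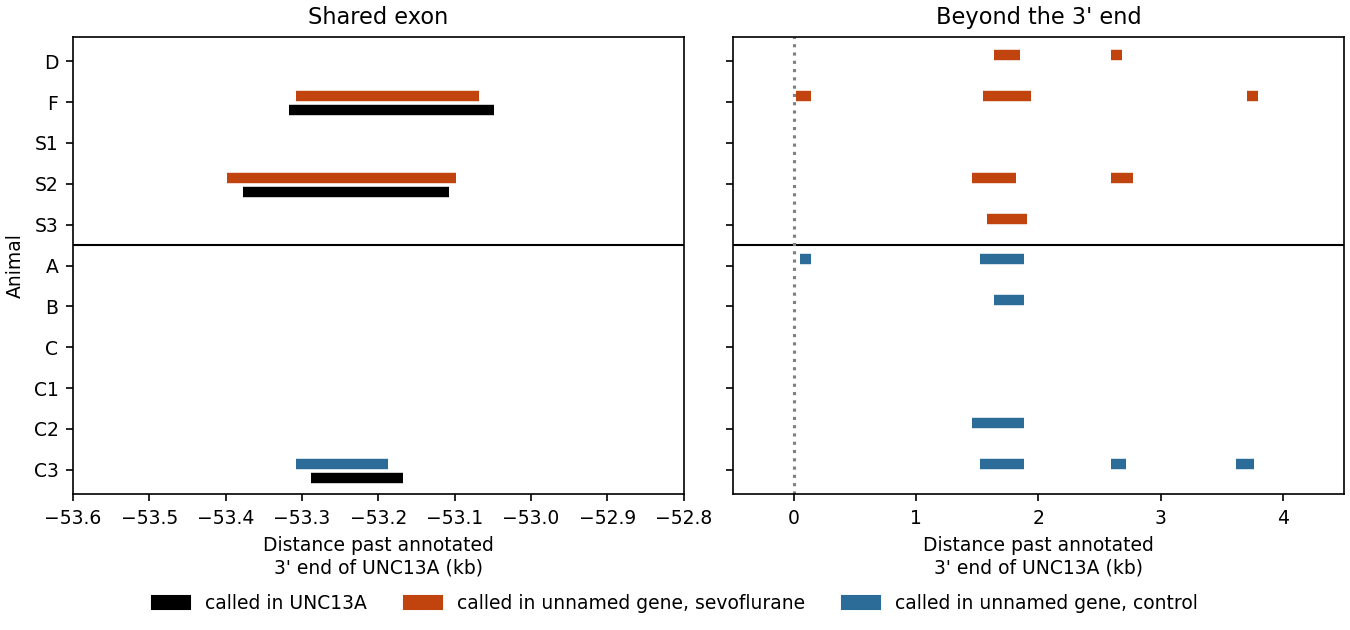
Peaks at the UNC13A locus by distance past the annotated 3′ end of UNC13A (kb; negative values lie inside the gene), with a line per animal and the 5 sevoflurane animals above the 6 controls; black bars were called in UNC13A and coloured bars in the unnamed gene that contains it. The shared exon (left) is marked in F, S2 and C3, and the stretch beyond the 3′ end (right) in D, F, S2 and S3 and in A, B, C2 and C3.

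SYT1 and SNAP25 act at the fusion step. SYT1 encodes synaptotagmin 1, the vesicle calcium sensor for fast synchronous release, and SNAP25 a SNARE protein of the plasma membrane. SYT1 was the only tested gene of the 6 found more often in controls, with 0 of 5 sevoflurane animals and 2 of 6 controls, B and C2 (Fisher's exact test, unadjusted p = 0.455, adjusted p = 0.901). Both peaks lay toward its 3′ end on the plus strand (gene at chr11:77781512-78377928, ENSMMUG00000005530) but did not overlap. That of B was chr11:78377508-78377598, 330 bp from the annotated end, with fold 3.54, and that of C2 was chr11:78375709-78375859, 2069 bp from the end, with fold 2.93. S2, with the longest list of all, had neither. SNAP25 had no peak in any of the 11 lists.

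Within their lists most peaks of these genes combined a low enrichment with a small p-value, which is given as a description. The authors' enrichment was low: it ranged from 2.20 to 13.8 with a median of 3.00, against a median of 6.03 over all 10069 peaks, and 24 of the 26 lay below their own list's median. The p-values were small for so little enrichment, and 19 of the 26 lay on the stronger side of their list's median. Both held for 17 of the 26, among them 1 of the 7 CPLX3 peaks, 11 of the 18 in sevoflurane lists and 6 of the 8 in control lists, while 2050 of all 10069 peaks (20.4%) had both. The median percentile was 13.8 by enrichment and 73.9 by p-value. CPLX3 had 2 of its 7 peaks on the stronger side by p-value, while the 3 CPLX1 peaks stood at percentiles of 0.992 to 19.5 by enrichment and 95.5 to 97.5 by p-value. The part of RNA level and read depth in this was not tested. Blocks summed to 90 to 358 bp of exon per peak, and 10 of the 26 peaks spanned more than 1 exonic block, against 35.9% of all peaks.

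**Figure D4:**
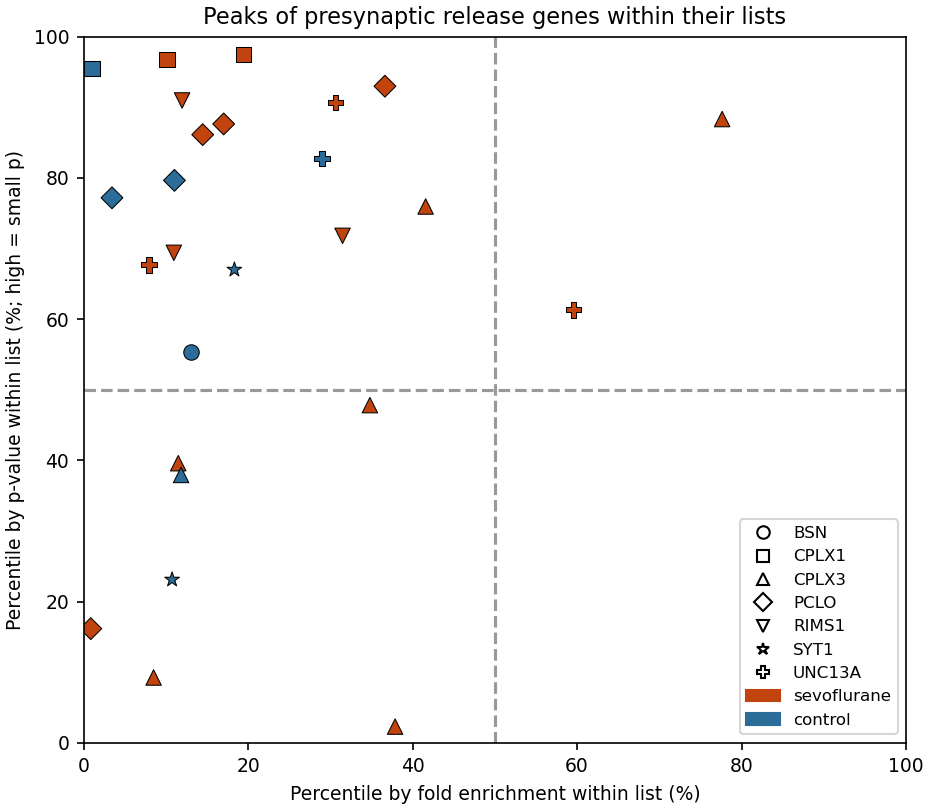
Each of the 26 peaks of the 7 genes by its percentile within its own list, by the authors' fold enrichment (x axis, %) and by p-value (y axis, %, high for small p); shapes stand for genes, colours for sevoflurane (18 peaks) and control (8 peaks), and dashed lines mark the list medians. Most points, 17 of 26, sit in the upper left corner, with low enrichment and a small p-value.

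The peaks were also followed through shorter lists. With a stricter p-value of at most 1e-05, 21 of the 26 peaks stayed (80.8%), against 65.5% of all peaks. With each list cut to the 452 peaks of smallest p-value, the length of the shortest list, 20 stayed (76.9%), against 49.4% of all peaks. The number of the 9 genes with a peak was then 2 in D, 3 in F, 1 in S1, 5 in S2 and 2 in S3, against 0 in A, 2 in B, 0 in C, 1 in C1, 1 in C2 and 3 in C3. That makes 13 gene-animal pairs in 5 sevoflurane animals and 7 in 6 controls, where the full lists had 16 and 8. S2 alone gave 5 of the 13, and the difference in pairs was not tested. With the lists cut to the same length by fold enrichment, an alternative chosen after seeing the data, 3 peaks stayed (11.5%), of CPLX3 in S2 and C1 and of SYT1 in B. CPLX3 was present in 3 sevoflurane animals, D, S1 and S2, and in C1 after the stricter p-value and again after the cut by p-value (Fisher's exact p = 0.242 each), and in S2 and C1 after the cut by enrichment (Fisher's exact p = 1). When each animal was given an odds factor for the length of its list, the exact p for CPLX3 was 0.0893. In none of these 4 settings did its difference pass the unadjusted threshold.

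The annotation class printed by the authors beside each peak was not used to place these peaks. On the plus strand, peaks classed as 5′ UTR had their median midpoint at 3.58% of the gene and those classed as 3′ UTR at 95.0%, but on the minus strand the medians were 87.8% and 20.8%. UNC13A, on the minus strand, was classed as 3′ UTR at 30.8% of the gene and again at its start. RIMS1, on the plus strand, was classed as 5′ UTR at 55.1% and at 99.3% of its gene.

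Several other genes had the same presence pattern over the 11 animals, measured by the Jaccard index (shared animals over animals with either). For RIMS1, 8 genes with a symbol had an index of 1, the first by symbol being ASXL1, GUCY1B1 and HERC1. DDX3X, SMARCC2 and VPS53 matched UNC13A, and MTCH1, PGBD5 and ZNF423 matched PCLO, with an index of 1 each. CPLX1 was matched by 13 genes, the first by symbol being BTF3, C14H11orf58 and CCER2, and SYT1 by 5, the first being CDH18, KIF2A and NT5C3A. No gene had the pattern of CPLX3, and the closest was APBB1 at 0.857, present in 5 sevoflurane animals and 2 controls. AHCYL1 and CLSTN1 followed at 0.833, each in 4 and 1, among 7 genes tied at that index.

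A wider list of 65 other genes of vesicle release, the active zone and vesicle recycling was read from the same test. Of these, 38 had a peak in any animal, 27 had none, and 20 had one in a single animal. SYP, the vesicle membrane protein synaptophysin, and SV2A, a vesicle glycoprotein, had a peak in all 11 animals, at median percentiles by enrichment of 86.2 and 80.5 within their lists, against 13.8 over the 26 peaks of the 7 genes. Of the 16 tested, 15 (93.8%) were found in a larger share of sevoflurane than control animals and 1 in a larger share of controls, against 83.2% of all tested genes in the first direction, and the median difference was 23.3 percentage points, equal to that of all tested genes. None of the 16 passed the unadjusted threshold, which those seen in 2 or 3 animals could not reach. PPFIA3, a liprin-alpha scaffold of the active zone, was present in 5 sevoflurane animals and 3 controls (Fisher's exact p = 0.182). SH3GL1, an endophilin of membrane recycling, was present in 4 and 2 (Fisher's exact p = 0.242). CACNA1B, the pore subunit of N-type calcium channels, RAB3GAP2, a regulator of Rab3 GTPases, and SYNGR1, a vesicle membrane protein, were each present in 2 and 0 (Fisher's exact p = 0.182 each). SYT7, a slow calcium sensor, and VAMP2, the vesicle SNARE, were each present in 3 and 2 (Fisher's exact p = 0.567 each). Among close relatives of the 9 genes, RIMS2, UNC13B and UNC13C were each present in 1 sevoflurane animal and 0 controls, RIMS3 in 0 and 1, and RIMS4 and CPLX4 in no animal.

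**Figure D5:**
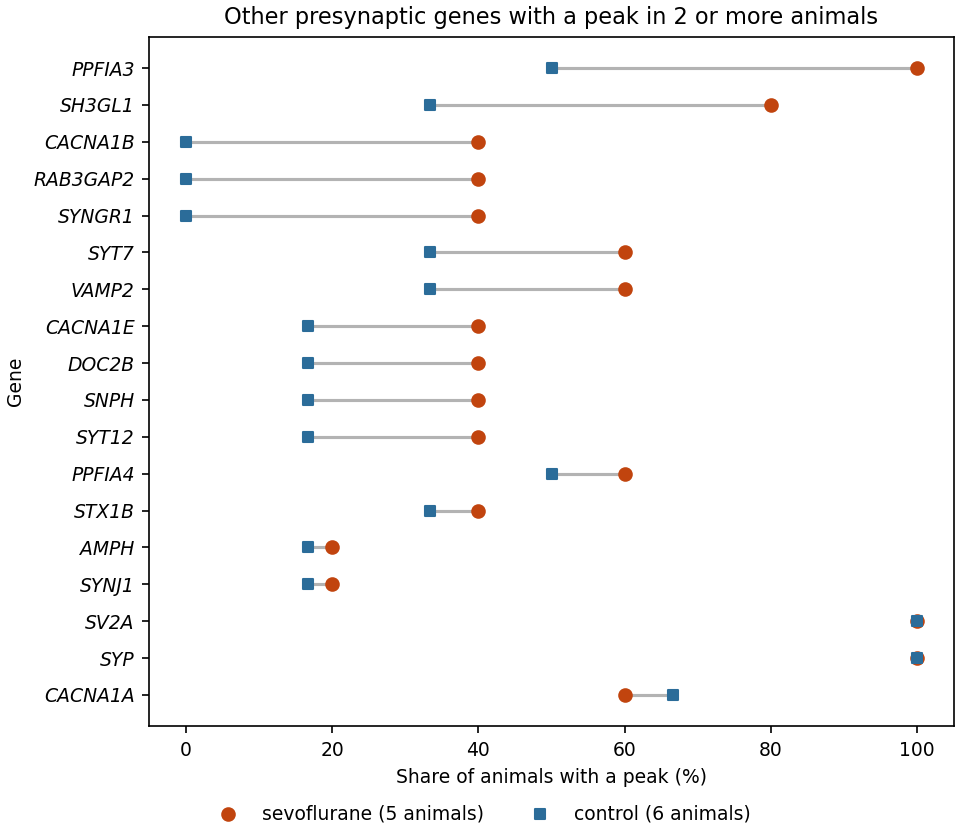
Share of sevoflurane (circles, 5 animals) and control animals (squares, 6 animals) with a peak in each of the 18 other presynaptic genes found in 2 or more animals (x axis, %). Sevoflurane lies to the right of control for 15 genes, both are at 100% for SV2A and SYP, and control lies to the right for CACNA1A.

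As a check of the labelled tissue, cell type markers were read in the same lists, where presence depends on a peak and not on expression alone. NEFM, a neurofilament subunit of neurons, had a peak in all 11 animals and RBFOX3, a neuronal splicing factor, in 3 sevoflurane animals and 4 controls, and 3 of 10 neuronal markers had a peak in any list. Each sevoflurane list held 1 to 3 neuronal markers and each control list 1 to 2. For other cells, a peak was found anywhere for 2 of 6 astrocyte, 2 of 6 oligodendrocyte and 2 of 4 oligodendrocyte precursor markers. It was found for 1 of 6 microglial and 0 of 4 endothelial markers. The share of markers with a peak was thus not highest for neurons. The oligodendrocyte marker CNP had a peak in 3 sevoflurane animals and 3 controls. Oligodendrocyte precursor markers numbered 0 to 2 per sevoflurane list and 0 in every control list, and their part in the results was not tested.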

How the data were processed

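Antibody-enriched and input libraries of total RNA were sequenced for 11 animals, and each animal has 1 peak list. Reads went through Trim Galore 0.5.0, cutadapt, HISAT2 2.1.0 and StringTie with rheMac8, per the submitters' processing notes. No source used here names the peak caller or its background, and the 11 input samples were not analysed here. The authors' deposited values for each peak are a p-value, its log10 and the log10 of a false discovery rate as scores, and a fold enrichment (a ratio), per the file headers. They were used to rank or filter peaks within a list and to describe them. Values of different animals were set side by side without a test. The largest p-value was 0.001 and the smallest fold 2.06. Depth is unknown, so no counting interval was computed. The labels name each animal separately.

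A gene was present if at least 1 peak was called in its Ensembl identifier, version removed. A supplied table named 3235 of 3671 identifiers, the peak tables others, and 186 had no symbol. Regions joined peaks of any animal sharing at least 1 exonic bp on one strand, and their printed spans include introns. Starts were raised by 1, since files count from 0. The annotated start and end of a gene were the smallest start and largest end printed beside its own peaks. These bounds may not span the full gene, and positions within or past a gene depend on them. Genes and regions in 2 to 9 animals had a two-sided Fisher's exact test with Benjamini-Hochberg adjustment over all tested, and log2 list lengths an exact permutation test. A planned test of enrichment percentiles was not run, since 0 of the 9 genes had a peak in 3 animals of each group. The tests were tested on simulated data.

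All 9 genes are named, as are up to 8 genes of the wider list with the largest difference in share, those in all 11 animals, and up to 3 genes per tested gene with the highest Jaccard index (ties by symbol). One item of the wider list that this rule takes is not reported here. RIMS2, RIMS3, RIMS4, UNC13B, UNC13C, CPLX4, CACNA1A, NEFM, RBFOX3 and CNP were named after their values were seen. The 9 genes, the lists and the tests were chosen with earlier results of these data known. Alternatives were a p-value of at most 1e-05, lists of equal length, odds factors for list length, strata by sex and by naming style (letters or numbers), a replicate block, the annotation column's gene, no filter on animals, 50% reciprocal overlap and leaving out each animal. Python 3.11.15, pandas 2.3.3, numpy 2.4.6, scipy 1.17.1 and matplotlib 3.10.9 were used.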

Additional observations from a re-analysis of the deposited data

Results flagged for a closer look

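Control animal C3 stood apart from the other 5 controls, with 1210 peaks in 1050 genes, while the others had 452 to 703 peaks. It was 1 of 4 animals with UNC13A peaks and the only control with a CPLX1 peak. The gap was judged by Dixon's test at the 95% level, which by construction marks about 1 in 20 groups by chance. Without C3, 59 genes in the series passed the unadjusted threshold after sevoflurane, against 27 with it, and CPLX3 stayed at 5 of 5 sevoflurane animals and 1 control.

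Outside the 9 genes, peaks were called in 2 Ensembl genes without a symbol that share their exons. ENSMMUG00000043808, on exons of RIMS1, had peaks in 3 sevoflurane animals and 0 controls, at an enrichment of 29.5 in F where RIMS1 had 2.81. ENSMMUG00000046541, which contains UNC13A, had peaks in 4 sevoflurane animals and 4 controls, most of them past the annotated 3′ end of UNC13A.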

How the results depend on the processing

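At an unadjusted p under 0.05 in Fisher's test, the count of genes found in more sevoflurane animals, 27 as deposited, was 10 with a p-value of at most 1e-05 per peak. It was 4 with lists of equal length by p-value, 4 with the odds factor for list length (where 14 genes were more often present in controls, against 0) and 4 with lists of equal length by enrichment (3 in controls). For regions it was 11 and 4 under the first pair of settings, against 19. Leaving out 1 animal gave 31 to 85 genes (0 to 1 in controls, the 1 without B or C1) and 22 to 68 regions. Without D, F, S1, S2, S3 or C3 the genes were 55, 56, 85, 46, 69 and 59 and the regions 38, 42, 68, 32, 62 and 43. In Fisher's exact test a gene in 3 sevoflurane animals and 0 controls has p = 0.0606 over all animals. The p is 0.0333 when a sevoflurane animal without the peak is left out. The genes that passed in this way were not counted, and what else moved the counts was not tested. No gene passed adjustment under any setting.

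CPLX3 lost its unadjusted call in the shortened lists and with the odds factor, as given in the report. With equal length by enrichment it was in 1 sevoflurane animal and 1 control, a difference of 3.33 percentage points that comes from the unequal group sizes. Its region at 50% reciprocal overlap gave 4 sevoflurane animals and 1 control (exact p = 0.0801). Its exact p was 0.00794 to 0.0476 when 1 animal was left out. RIMS1 passed the unadjusted threshold with strata by sex (exact p = 0.0286) and without D or S1 (exact p = 0.0333 each), 3 of 20 alternatives. D and S1 were the sevoflurane animals without a RIMS1 peak, so leaving either out lowered the p by construction. With strata by sex 37 genes in the series passed after sevoflurane, against 27 as deposited. The exact p of RIMS1 was 0.238 with the odds factor, 0.1 with the replicate block, 0.133 without F, S2 or S3 and 0.167 without any 1 control. Of the wider list, SH3GL1 and SYT7 turned to differences of -16.7 and -13.3 percentage points with equal length by p-value, and SH3GL1 and VAMP2 to -33.3 each with equal length by enrichment, where 0 or 1 sevoflurane animals kept a peak. The difference in list length lay between 0.805 and 1.12 (log2) when 1 animal was left out.

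Whether the numbers shared by S1 to S3 and C1 to C3 pair the animals could not be settled by correlation. The correlations were 0.063, 0.00016 and 0.023 for same-numbered animals, and -0.083 to 0.059 for the other pairs. With the numbers as a replicate block the list difference was 0.901 (exact p = 0.0125), and 19 genes and 16 regions passed. CPLX3 then had an exact p of 0.025, and no call of the 9 genes changed. Lists of equal length by enrichment, and counting the unnamed genes with RIMS1 and UNC13A, were chosen after seeing the data. Enrichment percentiles were not tested under any setting. Depth was not known, and with 5 and 6 animals a gene seen in 2 animals cannot reach an unadjusted p under 0.05.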
